A study of Zea mays with 8 samples.

Results

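The genes described are ded1 (GRMZM2G121570) and 2 further MYB transcription factor genes, MYB-IF35 (GRMZM2G051256) and Myb30 (GRMZM2G098179), 3 of the 39423 genes in the maize endosperm data. They were chosen by gene ID, by a rule that uses no measured value, and make up 4 of the 63293 transcript rows. ded1 and Myb30 have 1 row each, and MYB-IF35 has 2. The name table used here carries the names MYB-IF35 and Myb30. It holds GRMZM2G121570 with no name of its own. That this ID is ded1 is background knowledge, which neither the labels nor the deposited tables state. How closely the proteins are related was not analysed here.

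MYB transcription factors bind DNA through repeats of a helix-rich MYB domain. The R2R3 class, which carries a pair of these repeats, is the largest class of MYB factors in plants and controls phenolic pigments, cell shape and seed development. The name ded1 stands for dosage-effect defective1, a gene known to be expressed mainly from the paternal copy in maize endosperm, where its R2R3 MYB product acts in early endosperm development and seed weight. MYB-IF35 is known from maize cultured cells, in which it drives the accumulation of phenolic compounds.

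Endosperm, the starch- and protein-storing tissue of the maize kernel, was sampled 12 days after pollination, and its RNA was sequenced in 8 libraries. The mutant group was 4 pools of ded1-ref kernels, which carry the reference mutant allele of ded1, and the other group was 4 pools of normal sibling kernels. All pools were in the W22 background, and each ded1-ref pool was paired with the normal pool that shares its replicate number and title prefix. The title prefix of replicate 2 opens with another number than those of replicates 1, 3 and 4. The labels give 1 mutant allele, do not describe its lesion, and do not say whether normal pools held carriers of it. The comparison asks which transcripts differ between mutant and normal endosperm.

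The deposited values are TPM, each transcript's length-scaled share of its library on a common total, so that levels of different genes can be compared within a library. Reads recovered behind them ran from 10536845 to 20725033 per library. Zein genes, which mark starchy endosperm, held 38.1% to 43.1% of TPM in libraries labelled ded1-ref and 29.5% to 32.2% in normal libraries. The summed level of 2 starchy endosperm regulators of zein genes, o2 and PBF, ran the other way without overlap, at 241 to 290 TPM in libraries labelled ded1-ref and 367 to 469 TPM in normal libraries. Of all tested genes, 52.6% were likewise lower without overlap in libraries labelled ded1-ref. The summed level of 6 embryo marker genes was 10.6 to 19.6 TPM in libraries labelled ded1-ref and 16.1 to 19.7 TPM in normal libraries, most of it from 1 gene, since 5 stayed under 1 TPM in every library and 2 of those were at 0 throughout. TPM are shares, and the median log2 change over all tested genes, ded1-ref minus normal, was -0.68. The fit was repeated on scaled TPM, which are TPM over the median-of-ratios factor of each library, and there the median log2 change was -0.0029. The words rose and fell are used where both fits passed in the same direction at an adjusted p of 0.05. In bulk tissue, fewer cells of a type and less RNA per cell cannot be told apart.

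ded1 was the gene of the 3 with the highest level, and it rose in the libraries labelled ded1-ref. It stood at 67.3, 69.7, 101 and 67.4 TPM in replicates 1 to 4 labelled ded1-ref, against 42.0, 40.2, 38.5 and 37.0 TPM in normal replicates 1 to 4. The groups did not overlap, as for 2.14% of tested genes in this direction. Replicate 3 labelled ded1-ref stood above the others, and the normal libraries lay close together. The means were 76.3 ± 16.3 TPM in libraries labelled ded1-ref and 39.4 ± 2.18 TPM in normal libraries (SD, n = 4 each), a ratio of 1.93. These levels rest on 6773 recovered reads in the libraries labelled ded1-ref and 2557 in the normal libraries.

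**Figure D1:**
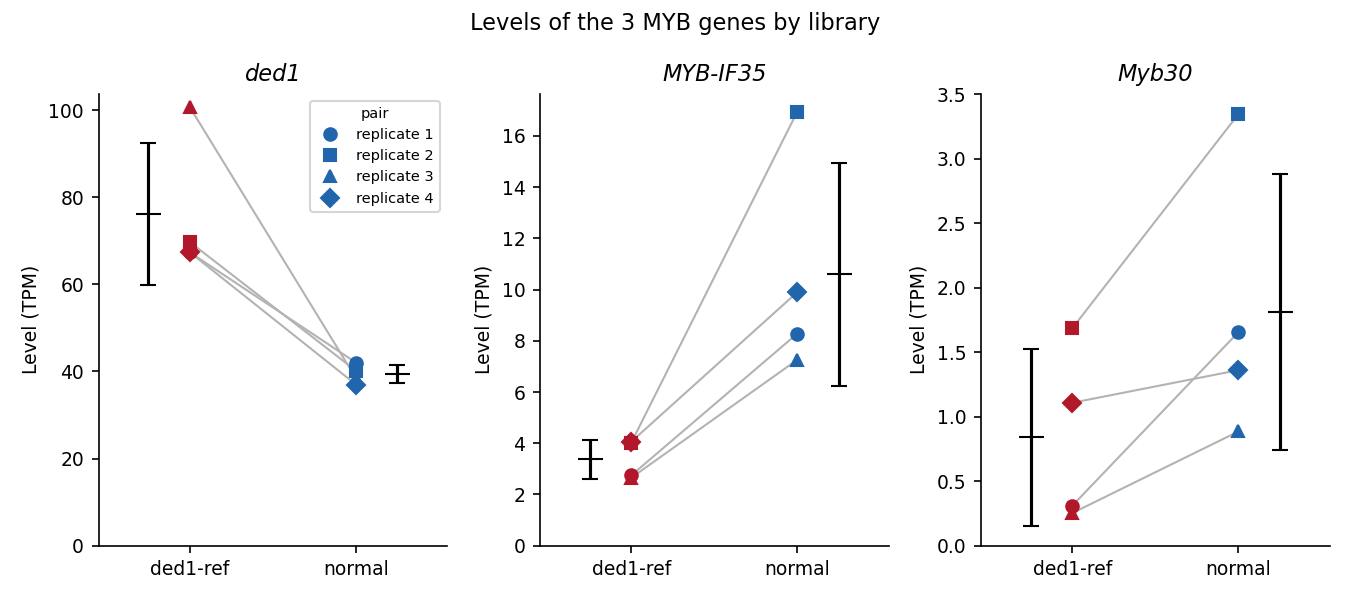
Level in TPM (vertical axis, starting at 0) of ded1, MYB-IF35 and Myb30 in each library, with ded1-ref left and normal right. Grey lines join the libraries of a pair, black bars give mean ± SD (n = 4), and marker shapes give the replicate. All ded1-ref points of ded1 lie above the normal points, all ded1-ref points of MYB-IF35 lie below them, and those of Myb30 overlap.

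For ded1 the fit gave a log2 change of 0.91 ± 0.15 on TPM (SE; limma adjusted p = 2.9e-04) and of 1.74 ± 0.19 on scaled TPM (limma adjusted p = 3.0e-04), with 4 of 4 pairs higher. Within pairs the TPM ratio of ded1-ref over normal was 1.60, 1.74, 2.62 and 1.82 in replicates 1 to 4. Replicate 3 gave the largest ratio. Without it the log2 change was 0.76 on the TPM scale and 1.49 on scaled TPM, and both passed. Of 13671 tested genes, 3.53% were called higher on TPM, 12.3% on scaled TPM and 3.53% on both. By size of log2 change ded1 ranked at position 210 from the top on the TPM scale and 148 on scaled TPM. When TPM were set again without zein genes, whose share moved with the groups, the log2 change of ded1 was 1.13. The transcript level of ded1 does not check the genotype of a library, since the lesion is not described, and directions refer to libraries as labelled. Its single row has a log2 fold of 1.77 and an adjusted p of 4.4e-11 in the authors' deposited table, which calls 7.95% of its rows higher and 6.75% lower.

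MYB-IF35 moved the other way and fell. It stood at 2.74, 4.02, 2.65 and 4.06 TPM in replicates 1 to 4 labelled ded1-ref, against 8.28, 16.9, 7.26 and 9.90 TPM in normal replicates 1 to 4. The groups did not overlap, as for 52.6% of tested genes in this direction, and normal replicate 2 stood highest. Means were 3.37 ± 0.775 TPM in libraries labelled ded1-ref and 10.6 ± 4.37 TPM in normal libraries (SD, n = 4 each), so that the normal mean was 3.15 times the other. Recovered reads numbered 341 in the libraries labelled ded1-ref and 722 in the normal libraries.

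On TPM the log2 change of MYB-IF35 was -1.36 ± 0.20 (SE; limma adjusted p = 1.4e-04), lower in 4 of 4 pairs, where 69.8% of tested genes were called lower. On scaled TPM it was -0.65 ± 0.20 (limma adjusted p = 0.0446), where 10.6% were called lower. The scaled call rested on the fit: limma adjusted p was 0.0535 without the replicate block, and 0.111, 0.199 and 0.0620 without replicates 1, 2 and 4. The scaled log2 change was -0.43 without replicate 2, against -0.65 with it. The 95% interval of the scaled log2 change was -1.10 to -0.20. Summed levels of 4 basal transfer layer marker genes moved the same way, at 143 to 277 TPM in libraries labelled ded1-ref and 454 to 1128 TPM in normal libraries, and their part in the result was not tested.

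Nearly all of MYB-IF35 came from 1 transcript row. Row GRMZM2G051256_T01 had 341 reads in the libraries labelled ded1-ref and 719 in normal libraries. Row GRMZM2G051256_T02 had 0 reads in the libraries labelled ded1-ref and 3 reads in normal libraries, 1 in replicate 2 and 2 in replicate 4, too few for a test of its level. Its mean share of the gene was 0% in libraries labelled ded1-ref and 1.27% in normal libraries (exact two-sided permutation p = 0.429). With just 3 reads behind the share, this p could not have been small and decides nothing about it. Taken alone, the first row had a scaled log2 change of -0.63 ± 0.20 (SE; limma adjusted p over rows = 0.0536), which did not pass, where 10% of rows were called lower. The authors' deposited table lists this row at a log2 fold of -0.75 with an adjusted p of 0.0276.

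Myb30 was near the lower limit of what was tested. It stood at 0.311, 1.69, 0.253 and 1.11 TPM in replicates 1 to 4 labelled ded1-ref, against 1.66, 3.35, 0.885 and 1.36 TPM in normal replicates 1 to 4. The groups overlapped, and in both of them replicate 2 was highest and replicate 3 lowest. The values rest on 9, 40, 5 and 25 reads in the libraries labelled ded1-ref and 31, 43, 18 and 22 reads in normal libraries. The 5 reads of replicate 3 labelled ded1-ref have an exact Poisson 95% interval of 1.62 to 11.7 reads, or 0.0823 to 0.591 TPM, which covers counting error only.

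Means of Myb30 were 0.840 ± 0.686 TPM in libraries labelled ded1-ref and 1.81 ± 1.07 TPM in normal libraries (SD, n = 4 each). Its log2 change was -0.62 ± 0.19 on TPM (SE; limma adjusted p = 0.0122), beside -0.68 for the median gene, and -0.23 ± 0.19 on scaled TPM (limma adjusted p = 0.424). The TPM-scale call was lost without the replicate block (adjusted p = 0.0671) and without replicate 1 (0.103, log2 change -0.48), and without replicate 2 or 4 the gene missed the level for testing. Each pair was lower on TPM, by ded1-ref over normal ratios of 0.188, 0.504, 0.286 and 0.814 in replicates 1 to 4, and 3 of 4 pairs were lower on scaled TPM. The 95% interval of the scaled log2 change ran from -0.65 to 0.19, and the value of MYB-IF35, -0.65, lies at its lower end. In the authors' deposited table its log2 fold is -0.31, with an adjusted p of 0.773. Another maize gene also named MYB30 (GRMZM2G171781) had 9 reads in all 8 libraries and at most 0.107 TPM.

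**Figure D2:**
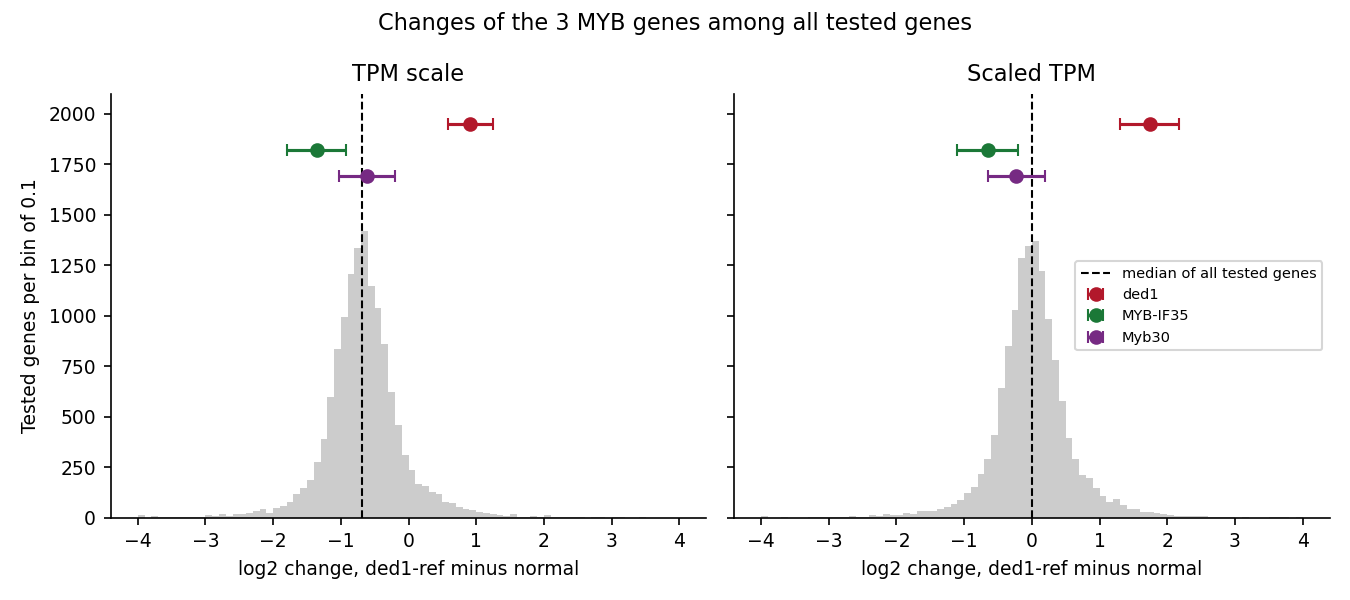
Log2 change, ded1-ref minus normal (horizontal axis), of the 3 genes with 95% intervals, above a histogram of all 13671 tested genes in bins of 0.1, on the TPM scale (left) and on scaled TPM (right). The dashed line is the median tested gene, changes beyond 4 in size are drawn at 4, and the heights of the coloured points carry no value. ded1 lies in the upper tail on both scales, MYB-IF35 below the median, and Myb30 near it.

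The order of the 3 genes was the same in every library, with ded1 highest, MYB-IF35 next and Myb30 lowest, but the distances between them differed. A ratio of 2 genes within a library does not depend on how the library is scaled. ded1 was 24.6, 17.4, 38.0 and 16.6 times MYB-IF35 in replicates 1 to 4 labelled ded1-ref, against 5.08, 2.37, 5.30 and 3.74 times in normal replicates 1 to 4. The ratios of the groups did not overlap. Their log2 difference was 2.53 ± 0.38 (SE), a 5.79-fold difference seen in 4 of 4 pairs. The exact two-sided permutation p was 0.0286, the smallest that 4 against 4 allow, and 0.0857 after adjustment over the 3 ratios, so that it did not pass.

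ded1 was 217, 41.3, 397 and 60.8 times Myb30 in replicates 1 to 4 labelled ded1-ref, against 25.4, 12.0, 43.4 and 27.2 times in normal replicates 1 to 4. Replicate 3 was highest in each group, and normal replicate 3 lay above replicate 2 labelled ded1-ref. The log2 difference was 2.31 ± 0.86 (SE; exact two-sided permutation p = 0.0571, adjusted p = 0.0857), in the same direction in 4 of 4 pairs. MYB-IF35 over Myb30 ranged from 2.38 to 10.5 in libraries labelled ded1-ref and from 5.00 to 8.20 in normal libraries. Its log2 difference was -0.23 ± 0.54 (SE; exact p = 0.714) and 2 of 4 pairs had that sign, and it was 0.060 without replicate 2 and 0.027 without replicate 4. A difference between the changes of these 2 genes was thus not detectable here.

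**Figure D3:**
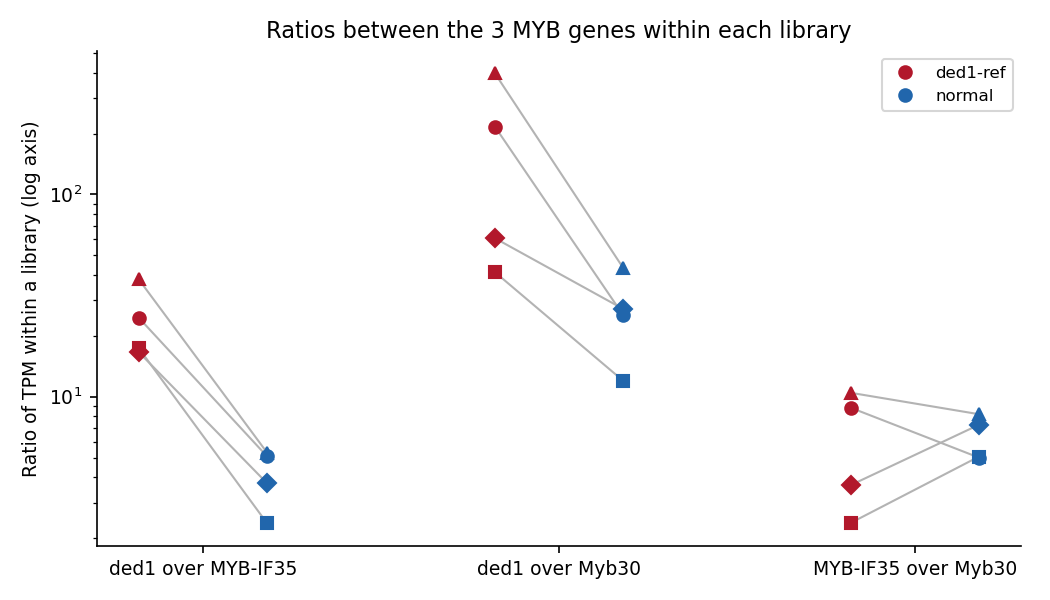
Ratio of TPM within each library (vertical log axis) for the 3 pairs of genes, ded1-ref left and normal right of each label, with grey lines joining the libraries of a replicate and marker shapes as in the plot of levels. ded1 over MYB-IF35 runs from 16.6 to 38.0 in libraries labelled ded1-ref and from 2.37 to 5.30 in normal libraries.

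ded1 was among the most abundant transcripts of the MYB genes that could be listed by name. An informative name was found for 2669 of 39423 genes, so MYB genes without such a name are not counted. The name table gives a MYB or MYB-related (MYBR) name to 66 other genes, of which 19 were at 0 in all 8 libraries, 30 had means above 0 but under 1 TPM, and 17 had a higher mean, of which 16 reached the level for a test. Among these genes and the 3 described, 69 in all, ded1 ranked 1 in libraries labelled ded1-ref and 2 in normal libraries, after MYBR64. MYB-IF35 ranked 11 and 7, and Myb30 17 and 18. ded1 held 35.5% ± 8.67 of the summed TPM of the 69 genes in libraries labelled ded1-ref and 14.3% ± 1.32 in normal libraries (SD, n = 4 each). The exact two-sided permutation p of this share was 0.0286, not adjusted and the smallest that 4 against 4 allow. The share depends on the rise of ded1 and on the other genes in the sum. Summed TPM of the 66 other genes was 136 ± 26.7 in libraries labelled ded1-ref and 225 ± 15.1 in normal libraries, in the direction of the median gene. MYBR64 alone averaged 37.4 TPM in libraries labelled ded1-ref and 87.9 TPM in normal libraries, so the sum leans on this gene.

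Of the 16 other MYB genes tested, 2 rose and 3 fell on both scales, against 3.53% and 10.6% of all tested genes. Their median log2 change was -0.60 on the TPM scale and 0.13 on scaled TPM, beside -0.68 and -0.0029 over all tested genes. On TPM 2 of the 16 were called higher and 10 (62.5%) lower, beside 3.53% higher and 69.8% lower of all tested genes. On scaled TPM 3 were called higher and 3 lower, beside 12.3% and 10.6% of all tested genes. Of the 3 that fell, MYB51 and MYB129 reached the level for a test through the normal libraries, where they are higher, and just 1 library labelled ded1-ref reached it, at 1.02 TPM for MYB129. A gene admitted in this way tends to be lower in the other group by the rule itself, so the count of falls is a description. The count past both fits was 3 without the replicate block, 3 with a pseudocount of 0.1 and 4 with no filter on low values, and 2, 0, 4 and 1 without replicates 1 to 4. With any replicate left out MYB51 was no longer tested, nor was MYB129 without replicate 2.

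Among the genes that fell, MYB51 (GRMZM5G803355) averaged 0.139 ± 0.0441 TPM in libraries labelled ded1-ref and 2.35 ± 1.45 TPM in normal libraries (SD, n = 4 each; scaled log2 change -1.12, limma adjusted p = 0.0052). MYB129 (GRMZM2G070523) averaged 0.721 ± 0.285 TPM in libraries labelled ded1-ref and 3.60 ± 1.52 TPM in normal libraries (scaled log2 change -0.88, adjusted p = 0.0068). Both were lower in 4 of 4 pairs with no overlap, and 52.6% of tested genes likewise did not overlap in this direction. With no filter on low values both still passed on each scale, with scaled adjusted p of 0.0296 for MYB51 and 0.0421 for MYB129. Both, like MYB-IF35, were highest in normal replicate 2. MYBR64 (GRMZM5G835542), the most abundant of the 66, averaged 37.4 ± 8.95 TPM in libraries labelled ded1-ref and 87.9 ± 10.3 TPM in normal libraries. Its scaled log2 change of -0.40 (adjusted p = 0.0458) did not pass when any 1 replicate was left out, with adjusted p from 0.0534 to 0.172.

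The genes that rose were c1 and MYB83. c1 (GRMZM2G005066), the MYB activator of anthocyanin pigment in the aleurone, averaged 5.94 ± 3.02 TPM in libraries labelled ded1-ref and 2.52 ± 1.90 TPM in normal libraries (scaled log2 change 1.60, adjusted p = 0.0259), higher in 3 of 4 pairs. MYB83 (GRMZM2G024468) averaged 12.3 ± 1.43 TPM in libraries labelled ded1-ref and 8.32 ± 3.98 TPM in normal libraries (scaled log2 change 1.36, adjusted p = 0.0022), higher in 3 of 4 pairs. In both genes the groups overlapped and the pair that went the other way was replicate 3, the pair with the largest ratio for ded1. On the TPM scale neither passed without replicate 2 (log2 change 0.88 for c1 and 0.54 for MYB83) or without replicate 4 (0.43 for c1 and 0.31 for MYB83). Nor did they pass on that scale with no filter (adjusted p = 0.190 for c1 and 0.144 for MYB83) or with a pseudocount of 0.1 (0.0564 and 0.0513), and MYB83 did not pass without the replicate block (0.0627). On scaled TPM c1 did not pass with no filter (adjusted p = 0.0980) or without replicates 1, 2 or 4 (0.0764, 0.0928 and 0.0676). The 4 aleurone marker genes looked at include c1 itself. Their summed levels were 11.2 to 35.1 TPM in libraries labelled ded1-ref and 14.9 to 19.7 TPM in normal libraries. This sum is thus not separate from c1, and the part of the aleurone in the values of c1 was not tested. The other abundant genes, MYBR43, MYBR88, MYBR26 and MYBR101, had TPM-scale log2 changes of -0.91 to -0.49. All were called lower there, as were 69.8% of all tested genes, and none passed on scaled TPM.

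**Figure D4:**
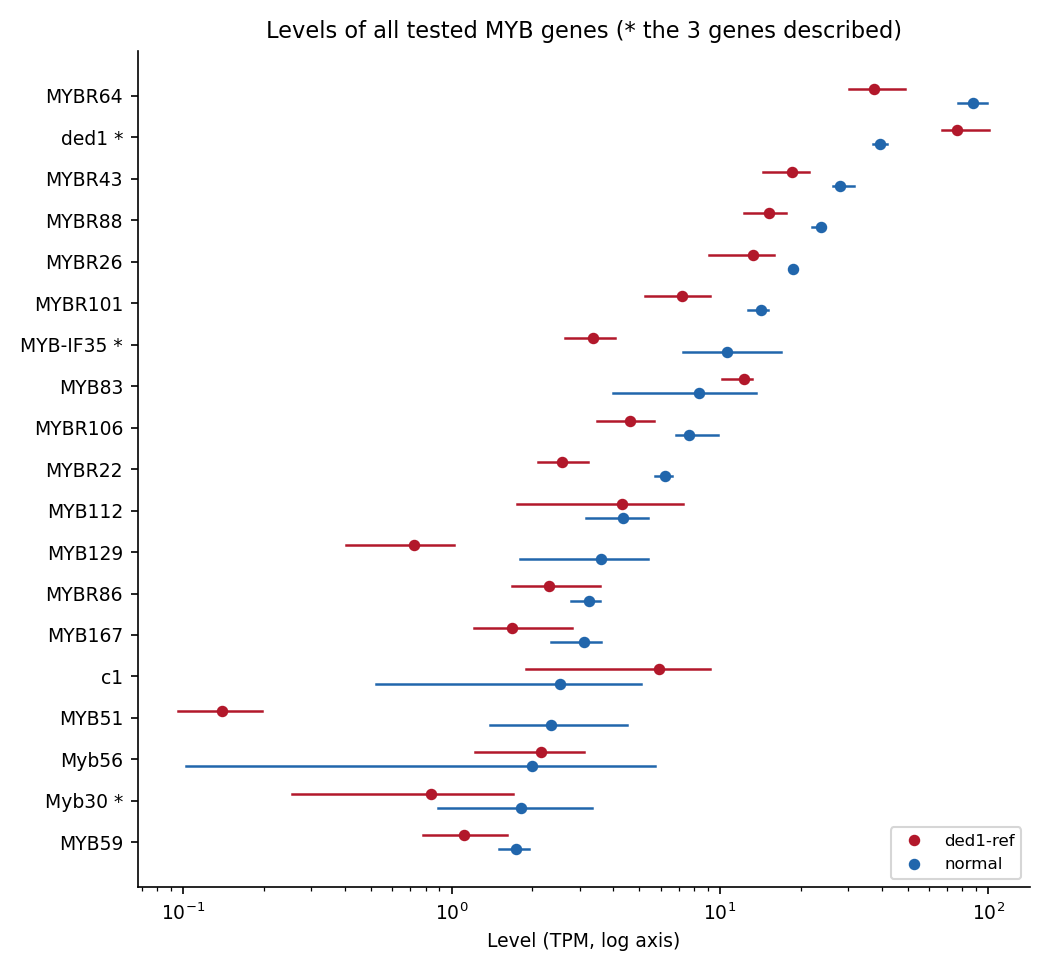
Mean level in TPM (points, horizontal log axis) with the range over 4 libraries (lines) of the 19 tested MYB genes, ordered by their normal level, ded1-ref above normal in each row. ded1 is the gene of highest mean in libraries labelled ded1-ref, and it, c1, MYB83 and Myb56 have a higher mean there than in normal libraries.

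Genes with levels most like those of the 3 were sought among 791 named genes with a mean of at least 5 TPM, by the Pearson correlation r of log2(TPM + 1) over the 8 libraries, as a description. These values follow the difference between the groups and the library scale. The genes closest to ded1 were the alpha zein genes z1A2_1 (r = 0.98), z1A1_7 (0.95), z1A1_6 (0.94) and z1C1_19 (0.93), and MPI (0.93), a proteinase inhibitor gene. Those closest to MYB-IF35 were nfa102 (a nucleosome assembly gene, 0.98), rnc1 (0.98), GNAT26 (0.97), NBP (0.97) and P4H5-1 (0.97). Those closest to Myb30 included m26 (0.98), lw1 (0.95), 334B7.2 (0.93) and kin9 (0.93). On scaled TPM these stood lower, at 0.71 for m26, 0.49 for lw1, 0.28 for 334B7.2 and 0.75 for kin9.

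With the group means taken off, only the spread within groups counts. The genes closest to ded1 on TPM were then ec2e (r = 0.85), GAPC (0.84), HDT1 (0.83), Cystatin (0.81) and fmi1(pki) (0.80), and no zein gene was among these 5. By r on scaled TPM the same genes ranked 2, 24, 9, 5 and 12. The r of zein genes on this measure is not reported here. In ded1 the spread within groups is mostly that of replicate 3 labelled ded1-ref, at 101 TPM against 67.3 to 69.7 TPM in the others of its group. The r values of ded1 were not computed without that replicate. For MYB-IF35 the closest genes included nfa102 (0.93), rnc1 (0.92), lw1 (0.91) and GNAT26 (0.88). For Myb30 they were m26 (0.98), eif7 (0.96), 334B7.2 (0.93), lw1 (0.92) and GalDH (0.92), and of these eif7 and GalDH stood at -0.16 and -0.02 on scaled TPM. On this measure MYB-IF35 and Myb30 were close to each other, at r = 0.90 (0.67 on scaled TPM), with 69 of 13671 tested genes closer to MYB-IF35. It was 0.86 without replicate 2. The r of ded1 with MYB-IF35 was -0.24 (-0.08 on scaled TPM, and -0.49 on TPM without replicate 2). Its r with Myb30 was -0.30 (-0.60 on scaled TPM, and -0.39 on TPM without replicate 2).

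Few of the genes next to the 3 in the annotation order were tested, too few for a statement on a common change. On the TPM scale every tested gene around ded1 and around Myb30 was lower, in the direction of the median gene. Among the 10 matched genes on each side of ded1, 4 were tested and 0 passed both fits in either direction (14.1% of all tested genes did; limma), and the scaled log2 changes of the 4 ran from -0.49 to 0.32. Around Myb30 8 were tested and 0 passed, with scaled log2 changes from -0.02 to 0.43. Around MYB-IF35 8 were tested, of which 1 rose and 1 fell. The one that rose was lg3 (GRMZM2G087741), the liguleless3 homeobox gene, at 5.77 TPM on average in libraries labelled ded1-ref and 2.52 TPM in normal libraries (scaled log2 change 1.64). The one that fell, GRMZM2G072890, averaged 15.2 TPM in libraries labelled ded1-ref and 90.5 TPM in normal libraries (scaled log2 change -1.69).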

How the data were processed

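Endosperm RNA of 4 ded1-ref and 4 normal pools was measured. The tools named in the submitters' processing notes are GSNAP, cutadapt 1.1 and Trimmomatic 0.22. Genome build and read counter were not given in the sources used here. Per the labels the kit does not mark strand, so reads of an antisense partner cannot be told apart. The authors deposited TPM for 63293 transcript rows. They also deposited their own comparison, which per the file headers holds a mean normalized signal, a log2 fold of ded1-ref over normal, its log2 standard error, a score, and raw and adjusted p-values. In all 38727 rows with a fold the deposited score runs against the sign of the fold, so direction was taken from the fold.

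Mean signal and TPM together gave whole reads, to within 0.05 reads, for 100% of 236228 values above 0. Rows were summed per gene. Genes that reached 1 TPM in 4 or more libraries were fitted with limma 3.58.1 (R 4.3.3) in trend mode on log2(TPM + 1), which understates changes of low genes, with a replicate block, and p-values were adjusted by Benjamini-Hochberg over all 13671. The block follows the stated sibling pairing, and deviations of same-numbered libraries correlated at 0.115, 0.333, 0.309 and 0.149. The same fit was run on scaled TPM and on rows. At the gene level it was also run on simulated reads, set without a pair effect or a shift of the median gene. That run therefore does not check how the fit handles either of these. Ratios and shares were tested by exact permutation over libraries. The labels call the pools biological replicates. Alternatives were another pseudocount, no filter, no block, each pair left out, limma-voom on recovered reads, upper quartile scaling and TPM without zein genes. No other model of counts was run on the recovered reads.

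Names came from a table of the Zm-B73-REFERENCE-NAM-5.0 assembly, which matched 18771 of 39423 genes, used for names and neighbour order alone. The genes, lists and tests were chosen with earlier results of these data known. Named were all 3 genes, the 5 closest to each (1 gene among these is not reported here), and MYB-named genes past both fits or among the 5 most abundant. The gene matched to the symbol MRP1 was taken to be a transporter of the same name, which is not certain, and was left out of the MYB list. The neighbouring genes, including GRMZM2G072890 and lg3, were added after values were seen.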

Additional observations from a re-analysis of the deposited data

Results flagged for a closer look

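In replicate 3 labelled ded1-ref, ded1 stood at 101 TPM, far above the other libraries of its group, with a gap of 0.929 of the group's range above Dixon's 95% critical value for 4 samples. On scaled TPM this library stood at 165 and its gap, 0.716, was under that value. In normal replicate 1, ded1 stood at 33.5 on scaled TPM, with a gap of 0.909 of the range of its group; on the TPM scale, at 42.0 TPM, its gap was 0.371. These are 2 of 12 groups looked at, and chance alone gives about 1 in 20. The 12 hold the same libraries on both scales and are not independent, so that share is a rough guide.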

How the results depend on the processing

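The rise of ded1 passed on both scales under every alternative run, with log2 changes of 0.76 to 1.13 on the TPM scale and 1.49 to 1.87 on scaled TPM. The fall of MYB-IF35 passed under every alternative on the TPM scale (-1.57 to -1.20). On scaled TPM its log2 change of -0.65 lost the call with no filter on low values (limma adjusted p = 0.104) and without the replicate block (0.0535), and it ran from -0.79 to -0.43 with each replicate left out. The TPM-scale change of Myb30, -0.62, lost the call with no filter (0.0611) and without the replicate block (0.0671), and ran from -0.63 to -0.48 without replicates 3 and 1; without replicates 2 or 4 it was not tested. The MYB-IF35 over Myb30 ratio was -0.23 on the log2 scale, ran from -0.58 to 0.060 with each replicate left out, and changed sign without replicate 2 (0.060) or 4 (0.027). With the pairs as a replicate block, an exact sign-flip test gave an adjusted p of 0.188 for both ratios of ded1 (4 pairs cannot reach the threshold).

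Over all genes, TPM gave 482 higher and 9539 lower calls, and scaled TPM 1688 higher and 1445 lower. The scaled count of 3133 ran from 1641 to 2212 with each replicate left out. The count of other MYB genes past both fits, 5, was 3 without the replicate block, 3 with a pseudocount of 0.1, and 0 to 4 with each replicate left out; these settings were added after seeing the data. The causes were not tested. A planned list of ded1 homologs by protein sequence was not used here. Depth limits Myb30, with 5 to 43 reads per library, and the second row of MYB-IF35.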
